A study of Mus musculus with 6 samples.

Results

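The Notch receptors and target genes described here are Notch1, Notch2, Notch3, Rbpj, Hes1, Hes5, Hey1, Heyl, Dtx1 and Nrarp. The list of genes was drawn up with earlier results of these data known. Its probe sets (a probe set is the group of array probes that reads 1 transcript region) were taken by symbol, with no filter on their values. Every probe set that the platform's gene table pairs with 1 of these symbols was taken. This gave 11 probe sets of 10 genes, out of 35421 probe sets and 19936 genes with a symbol of their own. Rbpj had 2 probe sets and the other genes 1 each, and no probe set shared by several genes named a member.

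The cells were pre-B cells of wild-type C57Bl6 mice aged 4 weeks, made leukaemic by BCR-ABL1, a kinase formed by the Philadelphia chromosome of human leukaemias. In 1 group of 3 samples the cells were transduced with the retroviral vector pMIG, which marks infected cells with green fluorescent protein (GFP), and in the other 3 with pMIG-IKZF1, the same vector carrying IKZF1, whose product Ikaros is a zinc finger transcription factor. After 3 days the cells with GFP were sorted, and total RNA was read on Affymetrix arrays, 1 for each sample, called pMIG 1 to 3 and pMIG-IKZF1 1 to 3. All 6 samples carry BCR-ABL1. The labels give neither the species or isoform of the insert nor whether replicates are separate cultures or mice. The p-values therefore measure the spread between these 6 samples alone, which may be technical.

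Notch receptors are cell surface proteins that are cut when a Delta or Jagged ligand on a neighbouring cell binds them. The first cut is made by an ADAM protease and the next by gamma-secretase, after which the intracellular domain enters the nucleus, joins the DNA-binding protein RBPJ and a Mastermind coactivator, and turns on genes such as Hes1, Hes5, the Hey genes, Dtx1 and Nrarp. In lymphoid progenitors Notch1 signalling favours the T lineage over the B lineage, and Notch2 is needed for marginal zone B cells. Ikaros is known to bind DNA at sites whose TGGGAA core RBPJ also recognises, and to restrain Notch target genes in developing T cells.

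The deposited values are linear intensities with array medians between 100.2 and 107, and levels below are log2(intensity + 1). Ikzf1 itself read 11.85, 11.78 and 11.98 on the pMIG arrays and 13.09, 13.14 and 13.06 on the pMIG-IKZF1 arrays, so each array went with its label. Of the pre-B cell markers, 11 of 12 were measured, and all had a group mean above the background range, taken as the 95th percentile of 1194 olfactory and vomeronasal receptor genes (6.12 in the pMIG group and 6.24 in the pMIG-IKZF1 group). Of 11 measured T cell markers 4 had a group mean above it, Cd2, Cd3e and Cd5 in both groups and Cd8a in the pMIG-IKZF1 group. Over all genes the median log2 difference between the groups was 0.03, and 40.8% of genes had a difference below 0. The array pMIG 3 was lower than every other array for Notch1, Notch3, Hes5, Dtx1, Nrarp and the ligand gene Dll4, and lower than the other pMIG arrays for Hes1. For other genes pMIG 3 was higher than every other array, among them Rbpj and the pre-B markers Rag1 (9.70), Rag2 (8.95) and Cd24a (13.42). Values without it are given for the members and named pathway genes whose call they change.

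Because RBPJ and Ikaros share a core site, the stretch from 250 bases before to 50 bases after the annotated start (RefSeq, GRCm38.p6) was searched for TGGGAA on both strands. The table held this window for 7 of the 10 genes, all but Hes1, Hey1 and Heyl. The windows of Hes5 and Rbpj are shown because they hold the core, and that of Dtx1 because it is the member that passed the test. The windows of the pathway genes Dll4 and Maml3 are shown because these passed too. All are printed 5′ to 3′ in the direction of the gene, with matches to TGGGAA or its complement TTCCCA in capitals. They lie at chr5:120711620-120711919 on the minus strand for Dtx1, chr4:154960673-154960972 on the plus strand for Hes5, chr5:53590096-53590395 on the plus strand for Rbpj, chr2:119325534-119325833 on the plus strand for Dll4 and chr3:52104957-52105256 on the minus strand for Maml3.
Dtx1: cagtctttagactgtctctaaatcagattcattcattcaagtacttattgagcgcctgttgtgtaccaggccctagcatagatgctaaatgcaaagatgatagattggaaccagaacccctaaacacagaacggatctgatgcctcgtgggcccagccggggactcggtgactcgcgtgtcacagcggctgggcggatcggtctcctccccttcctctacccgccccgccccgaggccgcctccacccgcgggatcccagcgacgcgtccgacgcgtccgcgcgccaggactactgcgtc
Hes5: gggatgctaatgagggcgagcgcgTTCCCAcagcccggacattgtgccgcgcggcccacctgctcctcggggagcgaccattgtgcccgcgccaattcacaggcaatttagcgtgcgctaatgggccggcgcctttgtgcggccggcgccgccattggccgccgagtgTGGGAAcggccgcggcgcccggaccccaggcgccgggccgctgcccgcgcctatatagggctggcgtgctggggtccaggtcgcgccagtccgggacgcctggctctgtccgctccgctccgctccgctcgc
Rbpj: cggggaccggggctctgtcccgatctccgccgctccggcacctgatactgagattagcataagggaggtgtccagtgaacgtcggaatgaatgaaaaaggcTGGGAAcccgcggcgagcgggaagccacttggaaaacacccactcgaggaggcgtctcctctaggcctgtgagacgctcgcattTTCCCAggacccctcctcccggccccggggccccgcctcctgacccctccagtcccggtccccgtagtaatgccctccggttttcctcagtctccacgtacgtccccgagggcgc
Dll4: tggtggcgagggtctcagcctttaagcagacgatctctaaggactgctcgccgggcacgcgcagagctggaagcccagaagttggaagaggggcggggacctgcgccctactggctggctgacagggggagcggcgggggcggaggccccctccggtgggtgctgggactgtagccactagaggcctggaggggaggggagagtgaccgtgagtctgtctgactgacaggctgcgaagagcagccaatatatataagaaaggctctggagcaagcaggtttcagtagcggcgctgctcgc
Maml3: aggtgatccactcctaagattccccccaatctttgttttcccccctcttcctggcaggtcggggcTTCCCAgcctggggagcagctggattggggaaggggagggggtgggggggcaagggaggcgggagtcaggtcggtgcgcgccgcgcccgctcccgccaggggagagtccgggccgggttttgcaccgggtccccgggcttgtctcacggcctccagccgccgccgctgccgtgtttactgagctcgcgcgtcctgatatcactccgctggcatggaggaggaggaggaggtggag

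The Hes5 window held 2 matches to TGGGAA, beginning 226 and 82 bases before the start and facing opposite ways, and both extended to the longer RBPJ site GTGGGAA. The core was found in 25.6% of 32851 windows of the same length, and GTGGGAA, which contains it, in 6.38%. The Rbpj window held 2 matches, 149 and 65 bases before the start, and a further annotated Rbpj window, which overlaps this one, held the latter again. The Maml3 window held 1, at 185 bases before the start. No match lay in these windows of Dtx1, Dll4, Notch1, Notch2, Notch3 or Nrarp, which says only that these letters are not there. The N box CACNAG, a sequence that HES repressors bind, was found in the windows of Notch1 (3 matches, 2 of them overlapping on opposite strands), Nrarp and Notch3 (2 each), and Notch2, Dtx1 and Dll4 (1 each), and in 42.5% of all windows. The members' windows were rich in G and C, from 59.3% in Dtx1 to 73.0% in Notch2, where the median of all windows was 52.7%. They held between 21 and 41 CpG dinucleotides against a median of 7. A match is a description of the sequence, and binding was not measured.

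Dtx1 was the member that passed the test. It encodes Deltex1, a ubiquitin ligase that binds the intracellular domain of Notch and is itself a Notch target in lymphocytes. Its probe set read 7.62, 7.63 and 7.41 on the pMIG arrays and 8.94, 8.72 and 8.63 on the pMIG-IKZF1 arrays. The groups lay more than 1 log2 unit apart, with every pMIG-IKZF1 array above every pMIG array, as the plot of levels by array shows. The group means were 7.56 ± 0.12 and 8.76 ± 0.16 (SD, n = 3 each), a rise of 1.21 ± 0.10 (SE) on the log2 scale or 2.31-fold (limma, Benjamini-Hochberg adjusted p = 0.0069 over all genes). By a 2-sided exact permutation test of the 6 values p was 0.1, which no design of 3 arrays against 3 can go below. Among all genes tested 0.371% had at least that difference. Without pMIG 1 the adjusted p was 0.057, with a difference of 1.24, and the call was kept without each of the other arrays (adjusted p from 0.0042 to 0.047).

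In all, 1 of the 10 members was higher by the test, 0 were lower and 9 did not pass, where 1.12% of all genes were higher and 1.13% lower. In limma, 4 members had an unadjusted p under 0.05, beside 18.4% of all genes. Of the 10, 5 had a log2 difference above 0 and 5 below, with a median of 0.02. The arrays of the groups did not overlap for 4 members, Dtx1 and Hes5 higher and Hes1 and Rbpj lower, while 26.5% of all genes were apart in this way. The count of members past the threshold depended on single arrays: it was 0 without pMIG 1 and 4 without pMIG 3, when Hes1, Nrarp and Heyl passed beside Dtx1. The share of all genes past the threshold was not taken in these fits. Whether the count of members differs from that share is therefore not known.

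**Figure D1:**
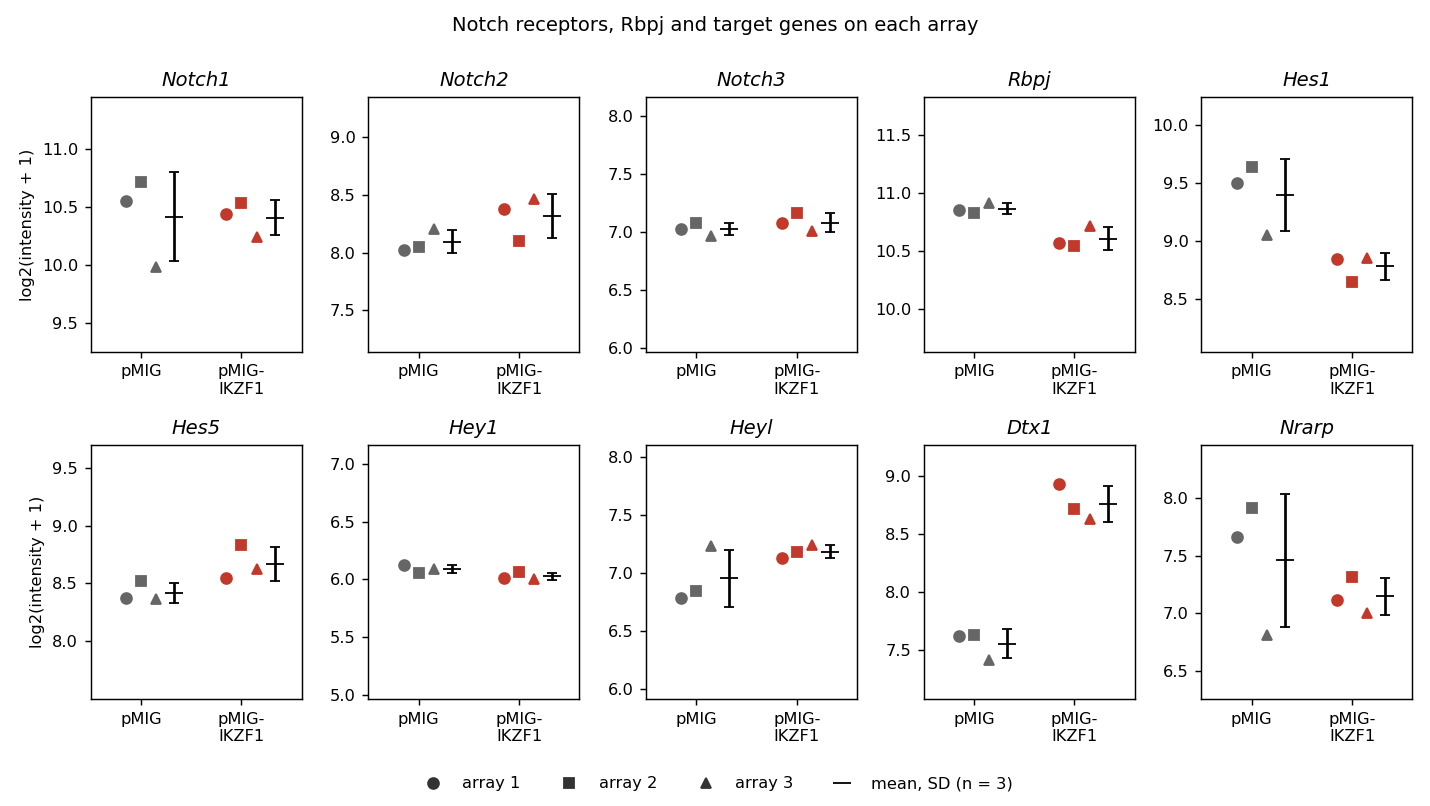
Level of each of the 10 genes as log2(intensity + 1) on the 3 pMIG arrays (grey) and the 3 pMIG-IKZF1 arrays (red), the marker shape giving the array number and the bar the mean with its SD (n = 3). Every panel spans the same log2 range around its own centre, so heights of different panels are not on 1 scale; Dtx1 is apart by 1.21, and pMIG 3 (grey triangle) sits low for Notch1, Hes1 and Nrarp.

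Hes1, a basic helix-loop-helix repressor and the target most widely used as a readout of Notch, went the other way in value but did not pass. Its levels were 9.50, 9.64 and 9.05 on the pMIG arrays and 8.84, 8.64 and 8.85 on the pMIG-IKZF1 arrays. All 3 pMIG-IKZF1 arrays lay below the pMIG arrays, and pMIG 3 was the nearest to them. The difference was -0.62 ± 0.16 (SE; 95% interval -0.998 to -0.240), which is 1.54-fold lower, with a limma adjusted p of 0.11 (0.069 with the replicate number as a block). Without pMIG 3 it was -0.79 and passed (adjusted p = 0.010), as it did with limma's array weights (-0.65, adjusted p = 0.019). Without each of the other arrays it lay between -0.65 and -0.50 and did not pass (adjusted p from 0.18 to 0.37). Differences at least as far below 0 were found for 1.12% of all genes.

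Hes5, the related repressor whose window holds the paired GTGGGAA sites, had levels of 8.37, 8.52 and 8.37 on the pMIG arrays and 8.55, 8.83 and 8.62 on the pMIG-IKZF1 arrays. The groups did not overlap, but the highest pMIG and the lowest pMIG-IKZF1 array were close. The difference was 0.25 ± 0.09 (95% interval 0.03 to 0.47) and did not pass (limma adjusted p = 0.23). Hey1 and Heyl encode the HES-related repressors of the Hey family. Hey1 read 6.12, 6.06 and 6.09 on the pMIG and 6.01, 6.06 and 6.01 on the pMIG-IKZF1 arrays, within the background range in both groups, with a difference of -0.06 ± 0.06 (adjusted p = 0.56). A change of Hey1 was therefore hardly detectable at this signal. Heyl read 6.78, 6.85 and 7.23 on the pMIG arrays and 7.13, 7.19 and 7.24 on the pMIG-IKZF1 arrays. Here pMIG 3 lay among the pMIG-IKZF1 arrays and the other pMIG arrays below them. The difference was 0.23 ± 0.12 (95% interval -0.07 to 0.53, adjusted p = 0.37), and 0.37 without pMIG 3 (adjusted p = 0.042). Without each of the other arrays it lay between 0.15 and 0.26 and did not pass (adjusted p from 0.41 to 0.71).

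Nrarp encodes a small ankyrin repeat protein that limits Notch signalling and is induced by it. It read 7.66, 7.91 and 6.81 on the pMIG arrays and 7.12, 7.32 and 7.01 on the pMIG-IKZF1 arrays. The pMIG group spanned more than the whole of the other group, with SDs of 0.58 and 0.16 (n = 3 each). The difference was -0.31 ± 0.27 (95% interval -0.97 to 0.35, limma adjusted p = 0.57). Between arrays of the same number it was -0.55, -0.59 and 0.20, so that the third pair had the opposite sign. Without pMIG 3 it was -0.64 with an adjusted p of 0.037. Without each of the other arrays it lay between -0.40 and -0.09 and did not pass (adjusted p from 0.66 to 0.86).

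None of the 3 receptor genes passed the test. Notch1 read 10.55, 10.72 and 9.98 on the pMIG arrays and 10.44, 10.53 and 10.24 on the pMIG-IKZF1 arrays. The groups overlapped throughout, and the difference was -0.01 ± 0.19 (95% interval -0.47 to 0.46, limma adjusted p = 0.99), so a change of up to about 0.47 in either direction lies within the error. Notch2 read 8.02, 8.05 and 8.20 against 8.38, 8.10 and 8.47, with pMIG-IKZF1 2 inside the pMIG range. Its difference was 0.22 ± 0.11 (95% interval -0.04 to 0.48, adjusted p = 0.34). Notch3, a receptor that is also a Notch1 target in T cells, read between 6.97 and 7.08 on the pMIG and between 7.01 and 7.16 on the pMIG-IKZF1 arrays. Its difference of 0.06 ± 0.07 (adjusted p = 0.68) turned to -0.04 with arrays centred on their medians or after quantile normalization, so no direction is given. Notch4, which is outside the 10 genes, had 0.13 ± 0.10 (adjusted p = 0.52).

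Rbpj, the DNA-binding partner through which all Notch receptors act on their target genes, was read by a bright and a dim probe set. The bright one gave 10.85, 10.83 and 10.92 on the pMIG arrays and 10.57, 10.54 and 10.72 on the pMIG-IKZF1 arrays. All pMIG-IKZF1 arrays were below the pMIG arrays, by -0.26 ± 0.07 (95% interval -0.43 to -0.09, limma adjusted p = 0.13, and 0.065 with the replicate block), which is 1.20-fold. The dim probe set, tied to a single messenger RNA record, read between 5.08 and 5.13 on the pMIG and between 5.18 and 5.48 on the pMIG-IKZF1 arrays, within the background range. Its difference had the opposite sign, 0.18 ± 0.09 (adjusted p = 0.32 among 21789 probe sets), and with the mean of both probe sets Rbpj had -0.04 (adjusted p = 0.75). The value for Rbpj thus rests on the choice of the bright probe set.

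**Figure D2:**
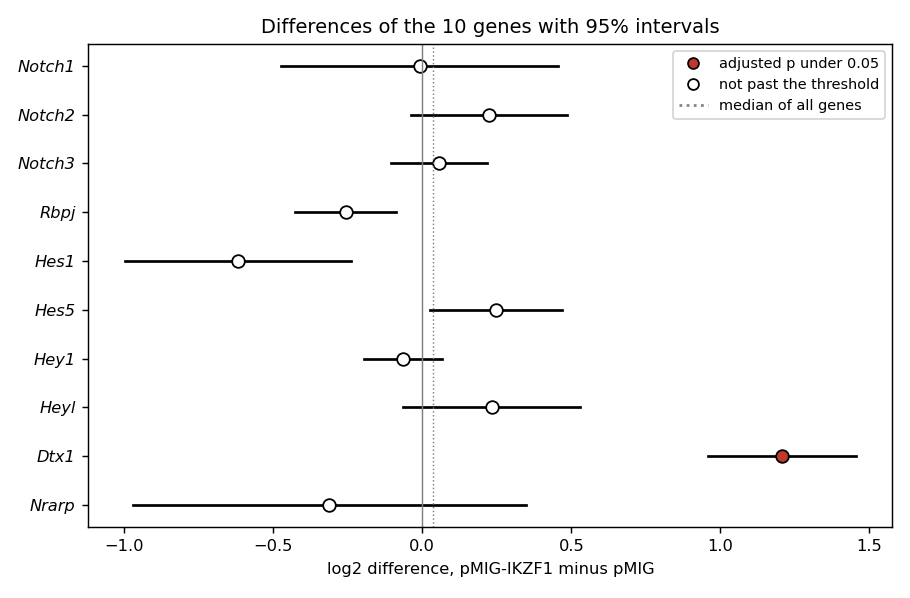
Log2 difference of each gene, pMIG-IKZF1 minus pMIG, with its 95% interval from limma (3 arrays a group); the filled point passed an adjusted p under 0.05, open points did not, and the dotted line marks the median of all genes at 0.03. Dtx1 stands at 1.21, and the intervals of Rbpj, Hes1 and Hes5 leave out 0 before adjustment for the number of genes tested.

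The other genes of the pathway were taken from 10 lists by role, which also hold the 10 members; 78 of 82 listed genes were measured. Of these 78, 3 rose and 75 did not pass, where 2.25% of all genes passed in either direction. The arrays of the groups were apart for 27 (34.6%, beside 26.5% of all genes), and the median difference was 0.05. With the replicate block 10 passed, 4 higher and 6 lower, where 7.21% of all genes did (3.36% higher and 3.85% lower). The 3 that rose were Dtx1, the ligand gene Dll4 and the coactivator gene Maml3. The count was 0 without pMIG 1, 2 without pMIG 2, 7 without pMIG 3, 1 without pMIG-IKZF1 1, 1 without pMIG-IKZF1 2 and 2 without pMIG-IKZF1 3. No share of all genes was taken with single arrays left out, so these counts cannot be set against one.

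Among the 5 ligand genes Dll4 was the one that rose. DLL4 is a Delta-like ligand of endothelium and of the thymic stroma, where it instructs T cell fate. The Dll4 probe set read 8.36, 8.30 and 7.60 on the pMIG arrays and 9.57, 9.63 and 9.21 on the pMIG-IKZF1 arrays. Every pMIG-IKZF1 array was higher than every pMIG array, and number 3 was the lowest in each group. The rise was 1.39 ± 0.22 (SE), or 2.61-fold (limma adjusted p = 0.036, and 0.0043 with the replicate block), and 0.226% of all genes had at least that difference. Between arrays of the same number it was 1.22, 1.33 and 1.61. Leaving out any array other than pMIG 3 ended the call, with adjusted p from 0.068 to 0.15 and differences between 1.31 and 1.52. Without pMIG 3 the difference was 1.14 and the adjusted p 0.0096. The other 4 ligand genes, Dll1, Dll3, Jag1 and Jag2, did not pass and had differences between -0.01 and 0.19.

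Of 9 genes of RBPJ and its coactivators, Maml3 rose and 8 did not pass. Maml3 encodes a Mastermind-like protein that bridges the Notch intracellular domain and RBPJ to histone acetyltransferases. It read 9.70, 9.73 and 9.68 on the pMIG arrays and 10.08, 10.13 and 9.97 on the pMIG-IKZF1 arrays, a tight separation of 0.36 ± 0.06 (limma adjusted p = 0.049, 1.28-fold). This call lay at the threshold: the adjusted p was 0.10 with arrays centred on their medians, 0.075 with an intensity trend in the prior, and between 0.062 and 0.22 with any 1 array left out. The paralogs Maml1 and Maml2 had differences of -0.03 and 0.05 (adjusted p = 0.83 and 0.77).

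None of the 10 measured corepressor genes passed. Tle1, a Groucho-type corepressor that HES proteins recruit, was lower by value on all pMIG-IKZF1 arrays (7.06, 6.81 and 6.95 against 6.50, 6.42 and 6.60), with a difference of -0.44 ± 0.09 and an adjusted p of 0.062. Sap30, which encodes a Sin3 histone deacetylase complex subunit, had group means of 10.10 ± 0.12 and 9.42 ± 0.31 (SD, n = 3 each) with no overlap. Its difference was -0.68 ± 0.16 (adjusted p = 0.091). With the replicate block both were past the threshold (adjusted p = 0.028 and 0.045). When single arrays were left out, Sap30 passed only without pMIG-IKZF1 3 (-0.86, adjusted p = 0.040). Of 15 genes of Notch turnover and trafficking, Dtx1 rose and 14 did not pass. Its paralogs Dtx2, Dtx3 and Dtx4 had 0.05, -0.14 and -0.06, and whether Dtx1 differs from them was not tested.

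Neither the genes of receptor maturation (6 measured) nor those of receptor cleavage (8 of 9 measured) passed. Lfng, a Fringe glycosyltransferase that alters the response of Notch to its ligands, had 0.16 ± 0.06 (adjusted p = 0.25) and Rfng -0.14 ± 0.08 (adjusted p = 0.40). Psen2 and Aph1c, which encode gamma-secretase components, had 0.34 ± 0.18 and 0.31 ± 0.17 (adjusted p = 0.37 and 0.38). Among 10 HES and HEY genes limma called 0. An unadjusted p under 0.05 was reached by 3, Hes1, Hes5 and Hes6, the last at 0.22 ± 0.07 (adjusted p = 0.20).

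Dtx1 alone passed in the lists of T lineage targets (12 of 13 measured) and B lineage targets (8 measured). With the replicate block, 5 further pathway or target genes beside Tle1 and Sap30 passed, and they are named here after their values were seen. These were the ligand-trafficking ubiquitin ligase gene Mib2 (-0.41, adjusted p = 0.14 without and 0.040 with the block), Cr2, which encodes the complement receptor CD21 (-1.18, 0.12 and 0.040), Myc (-0.39, 0.20 and 0.041), Igf1r (0.35, 0.14 and 0.032) and Poglut1, whose product adds glucose to Notch receptors (-0.42, 0.52 and 0.039). Cr2 spread widely in the pMIG group, at 7.11, 6.33 and 7.67, and read 5.83, 5.81 and 5.92 on the pMIG-IKZF1 arrays, within the background range there. Igf1r was within the background range in both groups. When single arrays were left out, Cr2 passed only without pMIG 2 (-1.53, adjusted p = 0.032) and Myc only without pMIG 3 (-0.53, adjusted p = 0.031). So did Lef1, which encodes a transcription factor of early T and B cells, without pMIG 3 (0.42, adjusted p = 0.028, against 0.31 and 0.18 with all arrays), and with array weights (0.35, adjusted p = 0.038); it is likewise named after its values were seen. Il2ra, the interleukin 2 receptor alpha gene and a T lineage target, was 8.88 on pMIG 3 and between 11.81 and 12.16 on the other 5 arrays; it too is named after its values were seen.

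**Figure D3:**
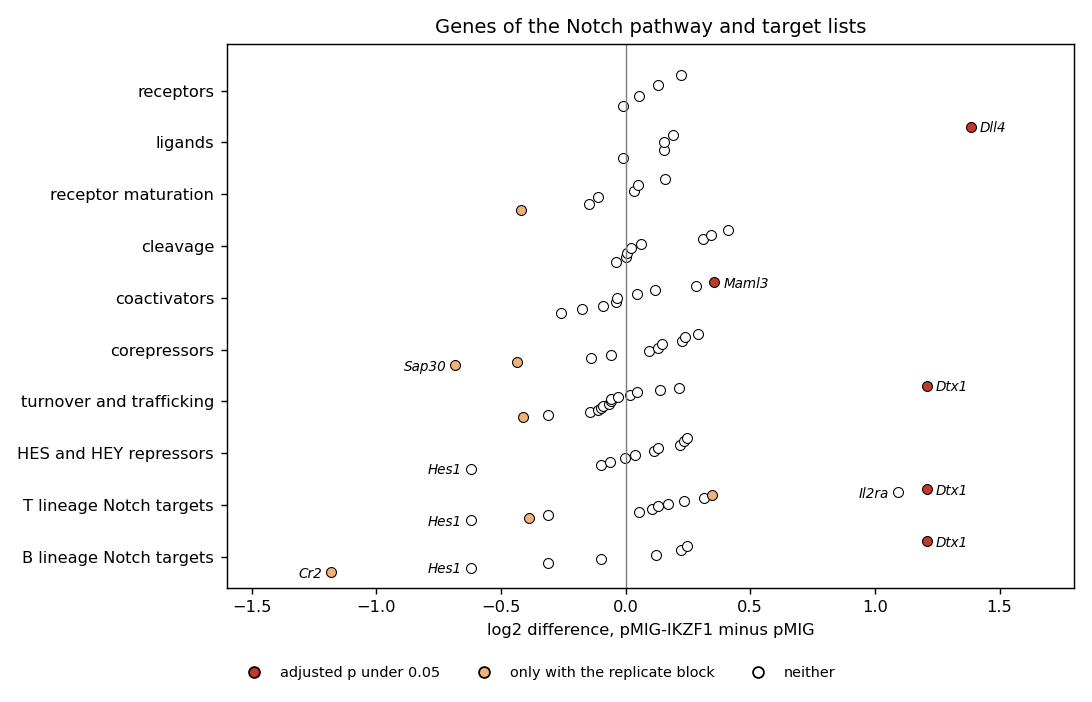
Log2 difference, pMIG-IKZF1 minus pMIG, of each measured gene of the 10 pathway and target lists, 1 row a list and 1 point a gene; red points passed an adjusted p under 0.05, orange points passed only with the replicate number as a block, and genes in several lists appear in each. Most points lie near 0, with Dll4 at 1.39 and Dtx1 at 1.21 to the right and Cr2 at -1.18 to the left.

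Endothelium, stroma and T cells carry Notch ligands or respond to Notch, so their markers were read beside these genes. Of 8 stroma and endothelial markers 0 passed (3 had an unadjusted p under 0.05, and 1 passed with the replicate block), but their summed intensity lay between 1718 and 2116 on the pMIG arrays and between 2333 and 2475 on the pMIG-IKZF1 arrays. Of the 8 markers 3 were higher on every pMIG-IKZF1 array, beside 15.2% of all genes. Most of the summed intensity came from Pecam1 (0.36 ± 0.11, adjusted p = 0.16), which B-lineage cells also express. Which cells gave the Pecam1 signal here was not tested. Without Pecam1 the sums lay between 582 and 655 and between 646 and 817. Above background were 5 of the 8 markers in at least 1 group, Pecam1, Pdgfrb and the collagen genes Col1a1, Col1a2 and Col3a1. The collagen genes had differences of 0.30, 0.29 and 0.31 (limma adjusted p = 0.28, 0.27 and 0.21), and Col1a1 was the marker past the threshold with the block (adjusted p = 0.0499). The endothelial markers Cdh5 and Kdr were within the background range in both groups (6.03 and 5.95 for Cdh5, 5.18 and 5.24 for Kdr). Of 11 measured T cell markers 0 passed (2 had an unadjusted p under 0.05), 9 had a difference above 0, and 4 were higher on every pMIG-IKZF1 array, beside 15.2% of all genes. Cd3e, a T cell receptor component gene, had group means of 6.95 and 7.34 (0.39 ± 0.14, adjusted p = 0.21), and Cd3d, another, was within the background range at 5.13 and 5.31. The summed intensity lay between 4118 and 5669 on the pMIG and between 4448 and 5316 on the pMIG-IKZF1 arrays. Cd2, at group means of 12.06 and 11.98, made up most of it. Without Cd2 the sums did not overlap, lying between 638 and 667 on the pMIG and between 682 and 821 on the pMIG-IKZF1 arrays. Of the markers left, 3 were above background in at least 1 group and the others lay within the background range. That range itself ended at 6.12 in the pMIG and 6.24 in the pMIG-IKZF1 group. Whether the groups differ in T cell RNA was not tested. Of 9 myeloid and 3 measured erythroid markers 0 passed, with summed intensities that overlapped between the groups. No marker was listed at 0, since every probe set carries some background. The part of such cells in the values of Dll4 and Dtx1 was not tested. In a bulk sample, fewer cells that express a gene and less RNA per cell cannot be told apart.

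The genes whose levels followed Hes1, Dtx1 and Notch1 most closely over the 6 arrays were looked up among 4269 genes whose mean over all 6 arrays was above background and that varied by at least 0.5. For Hes1 these were Amz2, the stress-induced transcription factor gene Atf3 and the drug efflux pump gene Abcb1b (Pearson r = 0.994, 0.992 and 0.992). For Dtx1 they were B3gnt8, Cpe, which encodes carboxypeptidase E, and the surface antigen gene Ly6g (r = 0.995, 0.995 and 0.994). Amz2 and B3gnt8 each varied by less than 0.5 within either group. They met the required range of 0.5 only through the gap between the groups. Cpe and Ly6g were within the background range on the pMIG arrays, apart from Cpe on pMIG 2, and entered this search through the pMIG-IKZF1 arrays. No size of difference is therefore given for Amz2, B3gnt8, Cpe or Ly6g. For Notch1 they were Sc5d, a sterol synthesis gene, Txndc5 and the semaphorin gene Sema4d (r = 0.998, 0.998 and 0.997). The Notch1 set shared its low value on pMIG 3, such as 10.43 for Sema4d beside 11.23 and 11.45 on the other pMIG arrays. For Hes1 and Dtx1 the arrays of the groups did not overlap, so r over all 6 arrays also holds the difference between the groups. With 6 arrays such values are common: 97, 138 and 254 genes had an r over 0.95 with Hes1, Dtx1 and Notch1, and all share the same 6 samples, so these are descriptions.

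**Figure D4:**
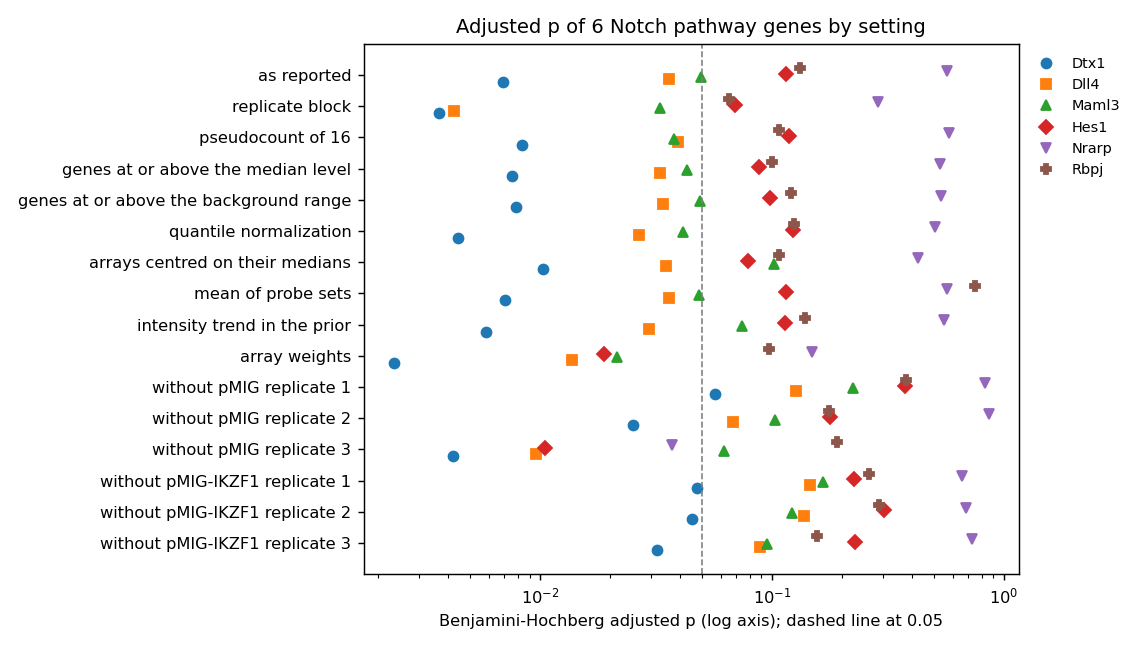
Benjamini-Hochberg adjusted p (log axis, dashed line at 0.05) of Dtx1, Dll4, Maml3, Hes1, Nrarp and Rbpj as reported and under each of 15 other settings, 1 row a setting. Dtx1 stays left of the line except without pMIG replicate 1 (0.057), while Hes1 crosses it with array weights and without pMIG replicate 3.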

How the data were processed

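RMA (robust multi-array average) was used by the authors to make the intensity values, according to the submitters' processing notes, which name no version. The deposited intensity values run from 11.1 to 23523, so they were read as linear, and log2(intensity + 1) was computed from them with a pseudocount of 1. Dim probe sets still hold background, which can make fold changes of dim genes too small. Of 35421 probe sets, 21789 pair with 1 symbol, 1621 with several and 12011 with none here. Symbols were brought up to date by gene number. Each of 19936 genes was represented by its brightest probe set (mean of the 6 arrays). No filter on level was set.

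Groups, taken from the sample titles, were compared with lmFit and eBayes of limma 3.58.1 (R 4.3.3; group as the only term, 2-sided), with Benjamini-Hochberg adjustment over all genes and a threshold of 0.05. Log2 differences are pMIG-IKZF1 minus pMIG. The fit was tested on simulated data whose noise was independent between arrays. Such data lack the correlation between arrays of the same number that is given below. The number of arrays limits the precision.

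Named were the 10 members, the genes of each list past the threshold or else its 2 with the smallest p, and the 3 genes most like Hes1, Dtx1 and Notch1; exceptions are stated. The members and lists were chosen with earlier results of these data known. Across genes, the deviations from the group mean of arrays that share a number correlated with r = 0.24, 0.60 and 0.66, all over the limit of 0.1 for taking the title numbers as pairs, though pMIG 1 with pMIG-IKZF1 2 also reached 0.11. A fit with the replicate block is therefore given where a call changes.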

Additional observations from a re-analysis of the deposited data

How the results depend on the processing

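Of 15 other settings, the count of members past the threshold (1) was the same in 12. It was 2 with array weights, whose estimation stopped before its tolerance was reached, and ranged from 0 to 4 when single arrays were left out. Counted over the 11 member probe sets it was likewise 1, 2 with array weights, and 0 to 4 with single arrays left out, 0 also without pMIG-IKZF1 1. The count of pathway genes (3) was 10 with the replicate block, 10 with array weights, and 0 to 7 with single arrays left out. The share of all genes past the threshold was taken only for the fit as reported and for the replicate block. Counts under the other settings cannot be set against it. It was 2, without Maml3, with arrays centred on their medians and with an intensity trend in the prior. With array weights the genes beside Dtx1, Dll4 and Maml3 were Hes1, Lef1, Itch, Tle1, Mib2, Cr2 and Myc. The block changed no call of a member. The Notch1 difference (-0.01) turned to 0.019 after quantile normalization and ranged from -0.23 to 0.14 with single arrays left out. It was 0.06 without pMIG 1, 0.14 without pMIG 2 and 0.07 without pMIG-IKZF1 3. The Notch3 difference (0.06) was -0.037 after quantile normalization and -0.041 with arrays centred on their medians. The other 8 members kept their direction under each setting that tested them, Dtx1 between 1.11 and 1.27. The cause of these shifts was not tested. Hey1 fell out when genes below the median level or the background range were left out. Where a group was left with 2 arrays, the spread was pooled over both groups.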
